A study of Mus musculus with 24 samples.

Results

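The genes described here are those of the extracellular matrix, the integrins and the matrix proteases, followed across 8 tissues of transgenic mice. They were chosen by symbol alone: collagens, fibulins, fibrillins and microfibril-associated proteins, fibronectin, laminins, nidogens, thrombospondins, SPARC and tenascin-C, lysyl oxidases, integrins, and the ADAMTS, MMP and TIMP families. Of 7493 genes in the deposited table, 72 matched. The mice carried human SENCR, whose long non-coding RNA is known from vascular cells, on a bacterial artificial chromosome (BAC), and every library came from such mice, since the labels name no animals without the transgene. The libraries' own names carry the letters SR-KI, and strain, age and sex are not in the labels. Bulk RNA was sequenced from aorta, heart, lung, stomach, kidney, liver, spleen and brain, with 3 libraries each. The labels number the libraries of a tissue but do not say which of them share an animal, so the p-values measure the spread between these 24 libraries.

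The extracellular matrix is the secreted scaffold around cells. Fibrillar collagens such as COL1A1 give it tensile strength, elastic fibres built on fibrillin microfibrils with fibulins let it recoil, and lysyl oxidases cross-link both. Laminins, nidogens and type IV collagens form basement membranes, and matricellular proteins such as SPARC, tenascins and thrombospondins tune how cells attach. Integrins are paired alpha and beta chain receptors that bind the matrix outside the cell and the actin cytoskeleton inside it. Membrane-bound and secreted metalloproteinases (MMP and ADAMTS) cut the matrix, and TIMP proteins inhibit them. In arteries, the smooth muscle cells of the wall and the fibroblasts of its outer coat make most of this material.

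The values were FPKM, fragment numbers divided by gene length and library size, and carried human gene symbols because the submitters' processing notes name a human genome build for these mouse reads. A mouse gene's level therefore depends on how much of it resembles the human gene. Tests compared each gene across tissues and never with another gene. Shares of reads and sums over several genes, given below as descriptions, carry this dependence. Read numbers worked out from the spacing of low FPKM values summed to totals that ran from 193900 in liver replicate 3 to 642307 in brain replicate 2, and libraries of a tissue correlated at r = 0.939 to 0.965 across genes. A listed 0 does not show absence. RPL3, a ribosomal protein gene that every cell uses, was listed at 0 in 21 libraries, and a count of 0 allows up to 3 reads in a library, counting error alone considered. In bulk RNA, fewer cells of a type and less RNA per cell cannot be told apart.

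Few of the 72 genes were read deeply. At least 1 FPKM in at least 3 libraries was reached by 24 of them (33.3%), against 56.9% of the whole table, and the tests below are of these 24. Of the 48 others, 20 had a single read over all 24 libraries, 22 had 2 to 10, and 6 had more (ADAMTSL1, ITGA7, ITGAV, LAMA2, LAMA4 and THBS1). By role, 2 of 6 fibrillar collagens, 1 of 8 other collagens, 4 of 5 elastic fibre genes, 1 of 3 lysyl oxidases, 1 of 7 laminins and nidogens, and 4 of 8 adhesive or matricellular genes could be tested. So could 2 of 9 integrin subunits, 2 of 4 genes named after integrins that are not subunits, 1 of 9 ADAMTS genes, 3 of 6 MMP genes and 2 of 3 TIMP genes. The last of the 24 was MFAP1, which the symbol brought in although it encodes a splicing factor. SPARC, TIMP3, COL1A1, FBLN5 and ITGB1BP2 together held 80.4% of the 18990 reads of the 72 genes.

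The share of a library's reads that fell on the 72 genes was largest in aorta, 0.597% to 0.647%. It was 0.227% to 0.344% in lung, 0.190% to 0.255% in heart and 0.127% to 0.147% in kidney. Stomach had 0.0837% to 0.0948%, brain 0.0713% to 0.0935%, spleen 0.0444% to 0.0696% and liver 0.0215% to 0.0325%. SPARC alone was 61.6% to 72.4% of these reads in brain, against 32.7% to 39.2% in aorta.

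**Figure D1:**
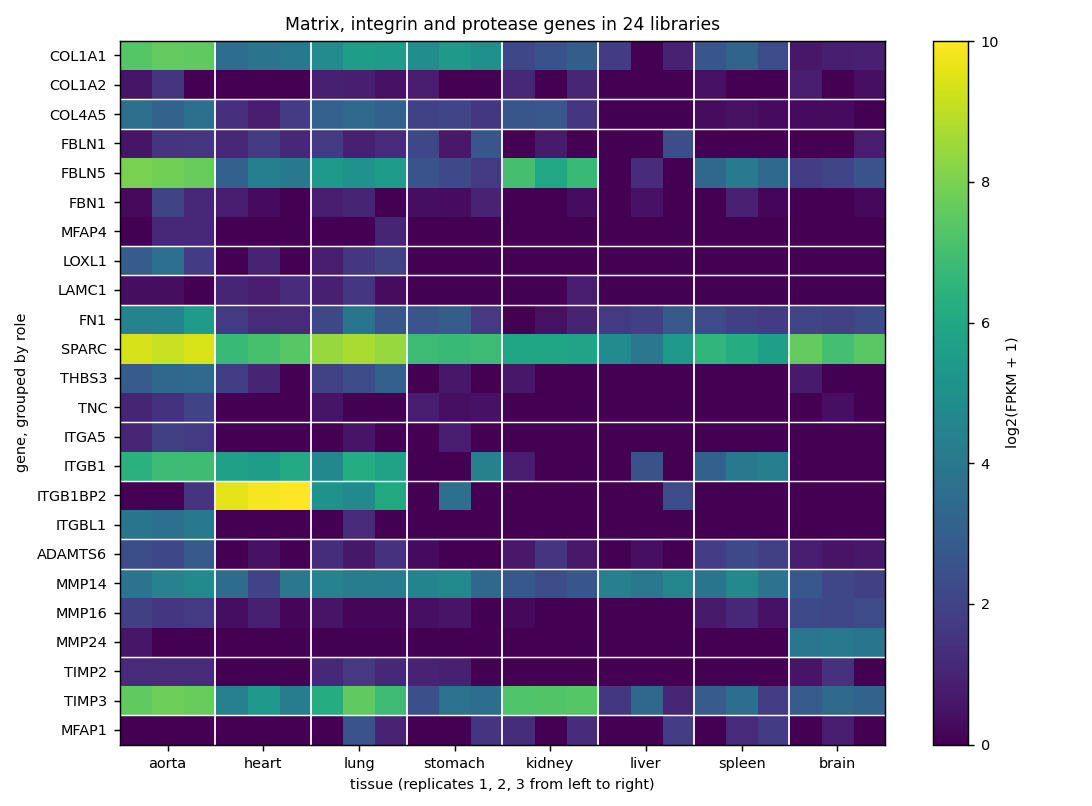
Level of each of the 24 tested genes, log2(FPKM + 1), in every library, with tissues in columns from aorta on the left to brain on the right and genes in rows by role, and brighter colours for higher levels. The aorta columns are brightest for COL1A1, FBLN5 and SPARC, ITGB1BP2 is brightest in heart, and MMP24 stands out in brain.

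Expression differed between the 8 tissues for 20 of the 24 genes (83.3%) in limma's moderated F test at an adjusted p under 0.05, near the 77.6% of all 4260 genes tested. COL1A2, FBN1, MFAP1 and MFAP4 did not pass. For each tissue, the mean on the log2(FPKM + 1) scale was then compared with the mean of the other 7. A gene was called when its Benjamini-Hochberg adjusted p was under 0.05 and its difference reached 1 on that scale, which understates the change of low genes. A gene called higher than in each of the other 7 tissues one by one was termed elevated. In this comparison each tissue also serves in the mean against which the other 7 are set. Of the 24 genes, 18 were called in some tissue, a count for which the share of all genes was not computed. In all, 8 were elevated in a tissue, against 24.1% of all genes. Among the elevated genes, ITGA5 passed the filter through aorta alone and MMP24 through brain alone, so their differences there were built in. ITGBL1 and LOXL1 reached 1 FPKM in 4 and 5 libraries, all aorta libraries among them. They could not have passed without aorta, so their differences there were partly built in. By mean, 16 of the 24 were highest in aorta, but the share of all genes highest there was not computed. The lead was not always a called difference, and for MMP14 it was 0.02 over liver. None was elevated in stomach, kidney, liver or spleen, where 1.20%, 1.69%, 1.92% and 1.50% of all genes were.

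Aorta was the tissue with the most matrix genes higher. There 14 of the 24 were called higher and 1 lower, while 9.58% of all genes were called higher and 8.19% lower. The 14 include ITGA5 and TNC, which passed the filter through aorta alone, so that their differences there were built in. They also include ITGBL1 and LOXL1, which could not have passed without the aorta libraries. The median difference of the 24 was 1.44, against -0.18 for all genes. In lung 8 were higher and none lower (11.9% and 3.64% of all genes), with a median of 0.72 against 0.15. Heart had 2 higher and 1 lower (6.41% and 17.4%), stomach 2 and 3 (7.65% and 5.87%), and kidney 2 and 6 (9.77% and 8.12%). Liver had none higher and 8 lower (9.81% and 17.3%), spleen 1 and 4 (11.5% and 13.5%), and brain 2 and 7 (23.9% and 10.5%). The medians were -0.60 in liver, -0.57 in kidney, -0.38 in spleen and brain, -0.29 in heart and -0.17 in stomach, against -0.33, -0.05, -0.14, -0.02, -0.44 and -0.08 for all genes in those tissues.

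**Figure D2:**
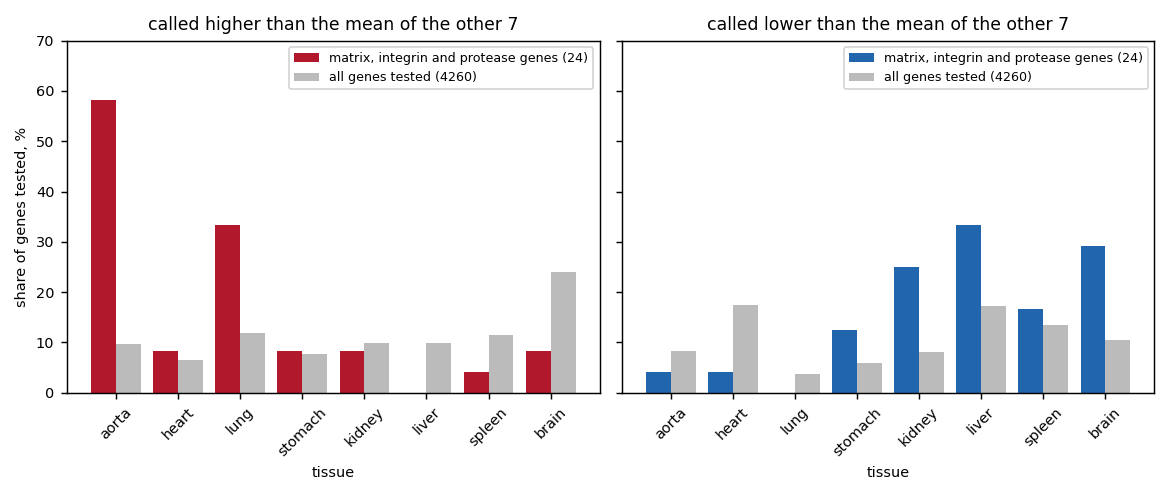
Percent of the 24 matrix, integrin and protease genes and of all 4260 tested genes called higher (left panel) or lower (right panel) in each tissue against the mean of the other 7. In aorta 14 of 24 were called higher, against 9.58% of all genes, and in liver none of the 24 was called higher. The 14 include ITGA5 and TNC, which passed the filter through aorta alone, and ITGBL1 and LOXL1, which could not have passed without aorta.

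Of the genes higher in aorta, 6 were elevated over each other tissue, where 1.64% of all genes were: COL1A1, FBLN5, FN1, LOXL1, ITGBL1 and ITGA5. COL1A1, the alpha-1 chain of type I collagen, stood at 165, 194 and 186 FPKM in the aorta libraries, against 0 to 46.5 (median 6.79) in the 21 other libraries. The aorta libraries lay well above all others, of which lung replicate 2 was the highest. The difference was 4.48 (SE 0.26, limma adjusted p = 6.69e-11). FBLN5, a fibulin that tethers elastin to microfibrils and is needed for elastic arteries, had 255, 236 and 204 FPKM in aorta, against 0 to 134 (median 9.12) in the others. These groups did not overlap either, and kidney replicate 1 came nearest. Its difference was 4.41 (SE 0.29, limma adjusted p = 4.66e-10).

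FN1, fibronectin, the glycoprotein that integrins bind and fibrils assemble on, had 21.4, 22.0 and 43.6 FPKM in aorta, against 0 to 13.9 (median 2.73) in the other libraries. Every aorta library was above every other, and aorta replicate 3 was the highest by a wide margin. The difference was 2.92 (SE 0.34, limma adjusted p = 1.11e-06). ITGBL1, a secreted protein with integrin-like repeats that is not itself a receptor subunit, had 13.8, 11.7 and 15.5 FPKM in aorta. Among the other 21 libraries it was listed above 0 in lung replicate 2 alone, at 1.36 FPKM, which was 2 reads against 51 in aorta. Its difference was 3.81 (SE 0.17, limma adjusted p = 2.00e-12). ITGBL1 reached 1 FPKM in 4 libraries and could not have passed the filter without those of aorta, so this difference was partly built in.

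The remaining pair of aorta-elevated genes rested on few reads. LOXL1, a lysyl oxidase of elastic fibres, had 6.48, 11.7 and 2.43 FPKM in aorta (26 reads), against 0 to 2.79 (median 0) elsewhere, where it was listed at 0 in 17 of 21 libraries. Aorta replicate 3 fell within the lung range, and the difference from lung alone was 1.35 (SE 0.35, limma adjusted p = 0.00991). LOXL1 reached 1 FPKM in 5 libraries and could not have passed the filter without those of aorta. ITGA5, the alpha chain of the main fibronectin receptor, had 1.12, 2.69 and 2.24 FPKM in aorta (11 reads), against single reads in lung replicate 2 and stomach replicate 2. It passed the filter through aorta alone, so that a difference there was built in. TNC did too.

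Promoters of the mouse genes are printed for the tissue-elevated genes with an entry in the RefSeq promoter table (build GRCm38.p6), so that the aorta genes can be set beside MMP24, which was elevated in brain. Each line is the 250 bases before the transcription start, 5′ to 3′ on the gene's strand. Fbln5 lies at chr12:101819120-101819369 on the minus strand, Itga5 at chr15:103366792-103367041 on the minus strand, Itgbl1 at chr14:123659890-123660139 on the plus strand and Mmp24 at chr2:155775092-155775341 on the plus strand. Capitals mark matches to CCAAT and GGGCGG on either strand.
Fbln5: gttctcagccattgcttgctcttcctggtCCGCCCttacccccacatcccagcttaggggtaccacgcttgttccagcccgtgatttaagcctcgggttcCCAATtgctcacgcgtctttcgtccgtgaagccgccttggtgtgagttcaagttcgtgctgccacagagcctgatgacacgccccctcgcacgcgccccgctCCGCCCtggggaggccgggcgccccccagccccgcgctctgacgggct
Itga5: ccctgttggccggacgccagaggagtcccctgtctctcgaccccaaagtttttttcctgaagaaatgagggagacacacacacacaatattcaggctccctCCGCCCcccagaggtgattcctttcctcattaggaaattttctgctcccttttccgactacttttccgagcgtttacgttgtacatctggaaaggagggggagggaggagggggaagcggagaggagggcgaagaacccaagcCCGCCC
Itgbl1: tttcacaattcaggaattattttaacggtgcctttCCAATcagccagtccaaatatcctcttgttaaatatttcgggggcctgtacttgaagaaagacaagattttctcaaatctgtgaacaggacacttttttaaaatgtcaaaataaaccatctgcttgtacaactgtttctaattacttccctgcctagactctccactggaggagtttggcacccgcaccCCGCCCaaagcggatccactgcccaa
Mmp24: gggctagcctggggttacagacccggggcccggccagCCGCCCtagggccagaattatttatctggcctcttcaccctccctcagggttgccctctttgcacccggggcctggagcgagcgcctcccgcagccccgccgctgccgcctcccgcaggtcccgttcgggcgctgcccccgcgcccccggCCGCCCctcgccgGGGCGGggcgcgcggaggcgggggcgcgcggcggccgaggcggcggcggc
The search covered 5 motifs on both strands of these 250 bases. Among all 32851 promoters of the table, TATAAA was held by 12.4%, the box CCAAT by 33.8%, the box GGGCGG by 32.7%, the AP-1 motif TGANTCA by 6.75% and a CArG box by 1.47%. The motifs do not overlap each other in the printed windows. Fbln5 held CCAAT at 150 and GGGCGG at 221 and 48 bases before the start, and Itgbl1 held CCAAT at 215 and GGGCGG at 26. Itga5 held GGGCGG at 149 and 6 bases before the start, and Mmp24 held it at 213, 63 and 50. The letters of the other 3 motifs were not in the printed windows. GGGCGG was in the printed windows of the 3 aorta genes and of the brain gene alike. The table holds another Fbln5 start, with its window at chr12:101818485-101818734, which held none of the 5 motifs. These matches are descriptions of sequence, not binding sites.

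**Figure D3:**
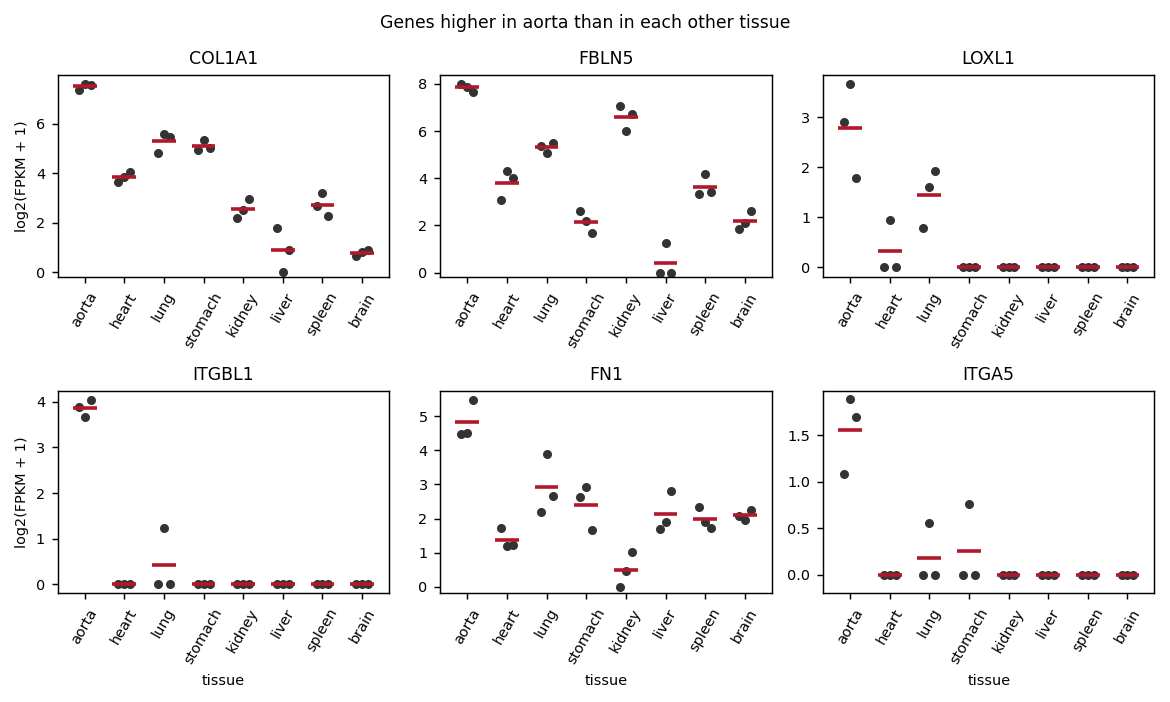
Level, log2(FPKM + 1), of the 6 genes elevated in aorta, 1 panel each, in the 3 libraries of every tissue (points) with the tissue mean (line); aorta is at the left of each panel. The aorta points stand above those of all other tissues for each gene but LOXL1, where aorta replicate 3, at 2.43 FPKM, lies within the lung range.

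Among the aorta genes that were not elevated over every tissue, SPARC, TIMP3 and ITGB1 were read most deeply. SPARC, a matricellular protein that binds collagen, had 678, 579 and 687 FPKM in aorta, against 14.8 to 428 (median 108) in the other libraries. The groups did not overlap, but lung was close, and aorta minus lung was 0.78 (limma adjusted p = 0.0512), short of the threshold. Against the mean of all others the difference was 2.69 (SE 0.20, limma adjusted p = 3.63e-09).

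TIMP3, a metalloproteinase inhibitor that stays bound to the matrix, had 190.3, 225 and 203 FPKM in aorta, against 1.12 to 188 (median 11.3) in the others. The lowest aorta library lay just above lung replicate 2, and kidney and lung were not separated from aorta (0.38 for aorta minus kidney, limma adjusted p = 0.640). The difference from the mean of the others was 3.40 (SE 0.39, limma adjusted p = 9.86e-07). ITGB1, the beta-1 chain shared by most matrix-binding integrins, had 82.1, 115 and 117 FPKM in aorta, against 0 to 71.7 (median 4.63). Its difference was 4.17 (SE 0.64, limma adjusted p = 3.38e-05), and aorta was not separated from heart (0.89, limma adjusted p = 0.502).

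Smaller differences were seen for the other genes higher in aorta. THBS3, a thrombospondin, had 6.39, 9.24 and 9.59 FPKM (difference 2.63), and COL4A5, a basement membrane collagen chain, had 11.6, 8.01 and 11.98 FPKM (difference 2.18). Both overlapped with lung, from which aorta was not separated (0.74 and 0.27, limma adjusted p = 0.216 and 0.655). ADAMTS6, a secreted metalloproteinase, had 4.17, 3.54 and 6.01 FPKM (difference 1.72) and overlapped with spleen, which reached 3.60 FPKM. Tenascin-C (TNC), prominent in remodelling tissue, had 1.04, 1.76 and 3.13 FPKM (difference 1.39), against at most 0.740 FPKM, in stomach. MMP16, a membrane-anchored metalloproteinase, had 2.76, 1.97 and 2.29 FPKM in aorta (difference 1.15), below brain.

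The gene lower in aorta was ITGB1BP2 (melusin), a muscle protein that binds the tail of beta-1 integrin, at 0, 0 and 1.89 FPKM (difference -1.94, limma adjusted p = 0.0107). The 21 other libraries ran from 0 to 1029 FPKM with a median of 0. This comparison thus set aorta against a mean carried by heart and lung. The same holds for the calls of ITGB1BP2 as lower in kidney, liver, spleen and brain. Its call in aorta was lost in 4 of 36 alternatives. Of the genes not called in aorta, FBN1 (0.85, adjusted p = 0.0211), TIMP2 (0.84, 0.00385) and MFAP4 (0.72, 0.00623) passed limma's p threshold but not the minimum difference. MMP24 did so in the other direction (-0.36, adjusted p = 0.0214). FBN1, TIMP2 and MFAP4 had 23, 6 and 2 reads in the 3 aorta libraries. FBN1 is the fibrillin of microfibrils, and its aorta libraries had 0.208, 3.20 and 1.25 FPKM. COL1A2, which encodes the partner chain of COL1A1 in type I collagen, had 0.475, 1.83 and 0 FPKM in aorta, 5 reads in all, and was not called (0.36, limma adjusted p = 0.277).

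**Figure D4:**
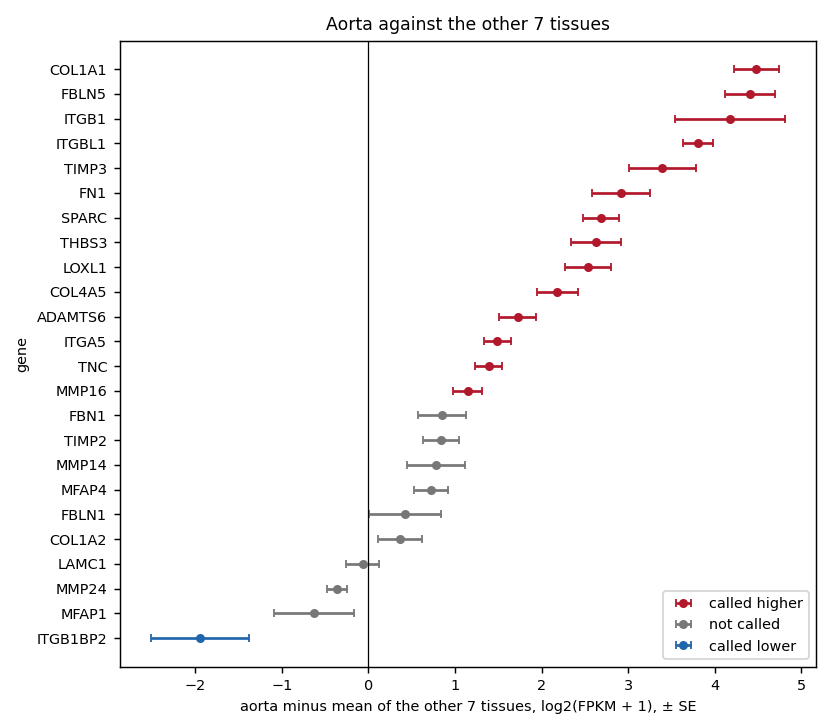
Aorta minus the mean of the other 7 tissues, in log2(FPKM + 1) units, for each of the 24 genes (points) with the standard error (bars), coloured by call. The values run from -1.94 for ITGB1BP2 to 4.48 for COL1A1.

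Some of the genes that work with these proteins were also higher in aorta. Of a list of 56 genes for collagen-processing enzymes, other matrix proteins, TGF-beta, adhesion and other proteases, 37 were in the table and 21 were tested. The list was chosen with earlier results of these data known, so its counts are no independent support. In aorta 11 of the 21 were called higher and none lower (9.58% and 8.19% of all genes), with a median difference of 1.06. TGFB3, a TGF-beta ligand, led them with 72.8, 90.5 and 93.9 FPKM, against 0 to 36.6 (median 4.78) elsewhere (difference 4.19, limma adjusted p = 3.41e-09). CCN1, a matricellular protein that binds integrins, had 434, 813 and 889 FPKM, against 5.29 to 366 (median 37.4), a difference of 3.91. LTBP1, which stores latent TGF-beta on microfibrils, had 17.4, 18.8 and 24.4 FPKM, against 0 to 3.76 (median 0.746), a difference of 3.44. The groups did not overlap for any of these 3 genes.

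Some markers of the cells of the aortic wall were higher in the same libraries. All 5 smooth muscle markers in the table (of 7 listed) were called higher in aorta, with a summed level of 246 to 328 FPKM. The stomach sum was 196 to 256 FPKM, most of it ACTG2 (212, 192 and 165 FPKM), the one smooth muscle marker called higher there. Of the fibroblast markers 4 of 5 were in the table, and TWIST1 was called higher in aorta at 121, 99.8 and 109.5 FPKM, against 0 to 8.92 (median 3.50). PDGFRA and TCF21 were listed at 0 in all aorta libraries, and DPT was above 0 in aorta replicate 1 alone. Of the endothelial markers TEK was called higher in aorta, ERG was not called and KDR was listed at 0. Among cardiomyocyte markers ACTC1 was called higher in aorta, and MYH6, ACTN2 and CKMT2 were called lower. Whether cell makeup had a part in the matrix differences was not tested. Aorta replicates 1 and 3 also held 363 and 216 reads of mitochondrially encoded genes, against 6 in replicate 2 and 1 to 19 in other libraries. Without replicates 1 and 3 a single aorta library remains, assumed to vary like those of the other tissues. In that fit 11 genes were called in aorta, each higher, and COL1A1 and LOXL1 were elevated. FBLN5 and FN1 were no longer elevated, and ITGA5 and ITGBL1 no longer passed the filter.

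The status as elevated depended on single libraries and settings for some of the 6 genes. For FBLN5, aorta exceeded kidney, the next tissue, by 1.26 (SE 0.38, limma adjusted p = 0.0153), and the gene was no longer elevated without aorta replicate 1, without kidney replicate 2, under TPM scaling or with a pseudocount of 0.1. LOXL1 was no longer elevated without aorta replicate 2 or lung replicate 1, with a pseudocount of 0.1 or 5, or on recovered reads with limma voom. FN1 was lost with a pseudocount of 0.1 and ITGA5 with a pseudocount of 5. ITGA5 no longer passed the filter when any aorta library was left out. The comparison of FBLN5 with the mean of the other 7 kept its call in every alternative run.

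Lung had the next largest set of matrix genes called higher after aorta, and none of the 8 was elevated over every other tissue, where 1.27% of all genes were. COL1A1 had 27.4, 46.5 and 43.7 FPKM in lung (difference 1.95, limma adjusted p = 1.06e-05), against 0 to 194 (median 6.79) in the other 21 libraries. All 3 lung libraries lay below aorta and overlapped with stomach, from which lung was not separated (0.20, limma adjusted p = 0.772). SPARC had 349.8, 428 and 354 FPKM (difference 1.79), below aorta and above every library of the other 6 tissues. Lung exceeded brain, the next tissue, by 1.20 (SE 0.27, limma adjusted p = 0.000861).

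TIMP3 had 72.6, 188 and 115 FPKM in lung (difference 2.46), a wide spread that overlapped with kidney. COL4A5 had 7.77, 9.99 and 7.73 FPKM (difference 1.87), overlapping with aorta and above all libraries of the other 6 tissues. FBLN5 had 40.1, 33.0 and 44.0 FPKM (difference 1.50), below kidney by 1.29 and above heart by 1.50 (limma adjusted p = 0.0145 and 0.00406). THBS3 was higher as well, at 2.87, 4.19 and 7.47 FPKM (difference 1.78), and exceeded heart, the next tissue, by 1.50 (limma adjusted p = 0.00377).

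The muscle-associated ITGB1BP2 was the largest lung difference, 3.57 (SE 0.56, limma adjusted p = 6.36e-05), with 33.9, 26.7 and 66.5 FPKM. Muscle markers were present in the same lung libraries. The 5 cardiomyocyte markers summed to 924 to 1240 FPKM in lung, nearly all of it ACTC1, against 48533 to 58923 in heart, and TNNC1 and CKMT2 were listed at 0 in lung. The 4 skeletal muscle markers in the table summed to 31.0 to 127 FPKM in lung and were all called higher there. ITGB1BP2 was highest in lung replicate 3. Among the skeletal muscle markers ACTA1, MYH2 and MYH4 were highest in that library too, while MYH1 and the cardiomyocyte markers ACTC1 and MYH6 were highest in lung replicate 1. Markers of other cells were also called higher in lung: 2 of 3 tested leukocyte markers (PAX5 and SPI1), both tested endothelial markers (TEK and ERG) and 2 of 5 smooth muscle markers (ACTG2 and MYLK). The summed levels in lung were 110 to 140 FPKM for the leukocyte list, 21.7 to 29.7 for the endothelial list and 46.0 to 69.0 for the smooth muscle list. The part of any of these cells in the lung values was not tested. Of the 21 pathway genes 7 were higher in lung and none lower (11.9% and 3.64% of all genes), led by TGFB3 (35.0, 36.6 and 24.5 FPKM, difference 2.59), CCN1 (2.14) and VCL (1.73).

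The 2 genes called higher in heart were ITGB1BP2, which is not an integrin subunit, and ITGB1, which is. ITGB1BP2 had 770.1, 945 and 1029 FPKM in heart, against 0 to 66.5 (median 0) elsewhere, and was listed at 0 in 15 of the 21 other libraries. No other tissue came near, and the gene was elevated in heart (1.64% of all genes were), with a difference of 8.71 (SE 0.56, limma adjusted p = 1.73e-10). Heart exceeded lung by 4.50 (SE 0.75, limma adjusted p = 7.03e-05). ITGB1, whose product ITGB1BP2 binds, had 52.4, 46.9 and 68.1 FPKM in heart (difference 3.15, limma adjusted p = 0.000467), within the range of lung and below aorta.

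FN1 was called lower in heart, at 2.29, 1.30 and 1.33 FPKM (difference -1.03, limma adjusted p = 0.0181), a call lost without aorta in the comparison mean (-0.62, adjusted p = 0.140) and under all 3 other scalings. LAMC1, the laminin gamma-1 chain, had 1.06, 0.700 and 1.44 FPKM in heart (difference 0.83, limma adjusted p = 0.00130) and missed the minimum difference. It was called under median-ratio scaling and quantile normalization, which gave 3 genes higher and none lower in heart. ITGA7, the integrin alpha chain of muscle, missed the filter, with 0.576, 1.71 and 4.09 FPKM in heart (11 reads), against 0 to 0.639 (median 0) elsewhere. With no filter it was called higher and elevated in heart (difference 1.35, SE 0.23, limma adjusted p = 0.000159). The median of all genes in heart was -0.44 as deposited, -0.22 with median-ratio scaling and -0.18 after quantile normalization, and the split of all genes changed with it, 273 higher and 743 lower as deposited against 425 and 401 with median-ratio scaling. Of the 21 pathway genes 3 were higher in heart, among them ASPN (1.12) and TGFB3 (1.10), and ADAM10 was lower (-1.16), against 6.41% and 17.4% of all genes.

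In kidney, FBLN5 and TIMP3 were called higher and 6 genes were called lower. FBLN5 had 134, 62.3 and 106 FPKM in kidney (difference 2.97, SE 0.29, limma adjusted p = 1.06e-07), the next level after aorta. TIMP3 had 151, 154 and 167 FPKM (difference 2.96, SE 0.39, limma adjusted p = 5.47e-06), close to aorta and lung. Outside aorta, lung replicate 2 was the one library above these TIMP3 values.

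The 6 genes lower in kidney were ITGB1, ITGB1BP2, FN1, SPARC, MMP14 and COL1A1. FN1 had 0, 0.364 and 1.01 FPKM (difference -2.05, limma adjusted p = 7.51e-05), the lowest mean of the 8 tissues. SPARC had 57.6, 57.8 and 56.7 FPKM (difference -1.28), above liver and overlapping with spleen. COL1A1 had 3.55, 4.73 and 6.79 FPKM (difference -1.18, limma adjusted p = 0.00144), overlapping with spleen. With aorta left out of the comparison mean, COL1A1 (-0.55, limma adjusted p = 0.119) and SPARC (-0.92, 0.00151) were no longer called in kidney, whereas FBLN5 and TIMP3 were. Of the pathway genes, TLN2, a talin that links integrins to actin, was higher in kidney (25.6, 23.3 and 17.5 FPKM, difference 2.98), while TGFB3 (-2.85) and the procollagen-cleaving BMP1 (-2.40) were lower. In all, 2 of the 21 tested pathway genes were higher and 3 lower there, against 9.77% and 8.12% of all genes.

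In stomach, COL1A1 was called higher while FBLN5 and TIMP3 were called lower. COL1A1 had 29.4, 40.0 and 31.2 FPKM in stomach (difference 1.72, SE 0.26, limma adjusted p = 4.63e-05), at the level of lung and above heart by 1.26 (adjusted p = 0.00796). FBLN5 had 5.10, 3.59 and 2.21 FPKM (difference -2.10, limma adjusted p = 1.56e-05), and stomach did not differ from brain (0.01 for brain minus stomach, SE 0.38, adjusted p = 1). TIMP3 had 4.46, 12.4 and 11.3 FPKM (difference -1.65, limma adjusted p = 0.00298), overlapping with spleen and brain. Its call was lost without stomach replicate 1 (-1.24, limma adjusted p = 0.055).

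The other stomach calls were marginal. FBLN1, a fibulin of microfibrils and basement membranes, had 3.55, 0.624 and 5.38 FPKM (difference 1.12, limma adjusted p = 0.0479), and the call was lost in 25 of 36 alternatives. ITGB1 was listed at 0 in replicates 1 and 2 and at 20.3 FPKM in replicate 3, 22 reads against none. Its call as lower (difference -1.81, limma adjusted p = 0.0398) was lost in 9 of 37 alternatives. ITGB1BP2 was listed at 11.8 FPKM in stomach replicate 2 and at 0 in the other stomach libraries. In that library ACTA1 was at 10.1 FPKM and MYH2 at 11.8, both the highest of the stomach libraries. Among pathway genes ASPN (8.30, 3.65 and 18.0 FPKM, difference 1.69) and the sheddase ADAM10 (138, 117 and 109.5 FPKM, difference 1.46) were higher in stomach and CCN1 was lower (difference -1.77), that is 2 and 1 of 21, against 7.65% and 5.87% of all genes.

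Liver had 8 genes called lower, none higher and the smallest share of reads on the set. FBLN5 had 0, 1.39 and 0 FPKM in liver (1 read), against 2.21 to 255 (median 17.0) in all other libraries, which did not overlap (difference -4.09, SE 0.29, limma adjusted p = 7.62e-10). TIMP3 had 2.08, 9.11 and 1.12 FPKM (difference -3.09) and COL1A1 had 2.42, 0 and 0.869 FPKM (difference -3.08). Both overlapped, TIMP3 with spleen, brain and stomach and COL1A1 with brain.

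SPARC had 27.7, 14.8 and 40.4 FPKM in liver, against 48.6 to 687 (median 127) elsewhere (difference -2.58, SE 0.20, limma adjusted p = 3.14e-09). Every liver library was below every other library. COL4A5 was listed at 0 in the 3 liver libraries (difference -1.83), and ITGB1 and ITGB1BP2 were also called lower. THBS3 was called lower too, but not with aorta left out of the comparison mean (-0.69, limma adjusted p = 0.0582). MMP14, a membrane metalloproteinase that activates other MMPs, did not follow this pattern, with 19.4, 15.1 and 23.7 FPKM in liver. It was not called there (0.76, limma adjusted p = 0.065). Its mean was level with aorta (0.02 for aorta minus liver, SE 0.44, limma adjusted p = 1) and close to lung, stomach and spleen. Of the 21 pathway genes 7 were lower in liver, led by TGFB3 (listed at 0, difference -3.15), TLN2 (-1.59) and TLN1 (-1.50), and none was higher, against 17.3% and 9.81% of all genes. Liver libraries were also the shallowest, 193900 to 215012 reads.

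Spleen had ADAMTS6 as its one gene called higher, at 2.51, 3.60 and 2.73 FPKM, against 0 to 6.01 (median 0.558) elsewhere (difference 1.17, SE 0.21, limma adjusted p = 0.000161). Spleen was second to aorta, which it did not differ from by the test (0.48 for aorta minus spleen, limma adjusted p = 0.210). TIMP3 was lower, at 6.23, 11.3 and 2.51 FPKM (difference -2.24), as were ITGB1BP2, listed at 0 throughout (-2.52), COL4A5 (-1.42) and THBS3 (-1.05). With aorta left out of the comparison mean, THBS3 was no longer called in spleen (-0.69, limma adjusted p = 0.0611). COL1A1 (-0.98, adjusted p = 0.00491) and SPARC (-0.97, 0.000630) fell just short of the minimum difference and were called under TPM and median-ratio scaling. TLN1 was higher among the pathway genes (difference 1.90), and TLN2 (-2.08) and ASPN (-2.002) were lower, in all 1 higher and 5 lower of the 21, against 11.5% and 13.5% of all genes.

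The 2 genes called higher in brain, MMP24 and MMP16, both encode membrane-type metalloproteinases. MMP24, known from neurons in mice, had 14.2, 15.6 and 13.9 FPKM in brain, 122 reads, against 1 read (0.524 FPKM, aorta replicate 1) in all the other libraries. It was elevated in brain, where 13.2% of all genes were, with a difference of 3.93 (SE 0.12, limma adjusted p = 1.23e-16). It passed the filter through brain alone, and whether reads were counted by strand is not stated, so reads of its antisense neighbour MMP24OS cannot be told apart from it. MMP16 had 3.61, 3.34 and 3.95 FPKM in brain, against 0 to 2.76 (median 0.280) elsewhere (difference 1.69, SE 0.17, limma adjusted p = 2.21e-08). The 3 brain libraries were the highest of the 24, with aorta next and not separated (0.48 for brain minus aorta, limma adjusted p = 0.0860).

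MMP14, another membrane-type enzyme, was lower in brain, at 5.58, 3.36 and 2.73 FPKM (difference -1.62, SE 0.33, limma adjusted p = 0.000314), and overlapped with kidney and heart. COL1A1 had 0.580, 0.786 and 0.851 FPKM in brain (difference -3.19, SE 0.26, limma adjusted p = 1.29e-09), 8 reads over libraries of 580749 to 642307. ITGB1 was listed at 0 in the 3 brain libraries (difference -3.49). FBLN5, TIMP3, COL4A5 and ITGB1BP2 were lower too, with differences of -2.09, -1.76, -1.61 and -2.52. SPARC stood apart from these and was not called (0.42, limma adjusted p = 0.0999). It had 196, 127 and 172 FPKM, in the range of heart and by mean above stomach, spleen, kidney and liver. Of 21 pathway genes TLN2 was higher in brain (difference 1.52) and 7 were lower, among them CCN1 (-2.90) and VCL, which encodes vinculin (-2.81), against 23.9% and 10.5% of all genes. Neuron markers summed to 7402 to 8554 FPKM in brain, against at most 38.5 in any other library, and smooth muscle markers to 3.94 to 4.36 FPKM.

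**Figure D5:**
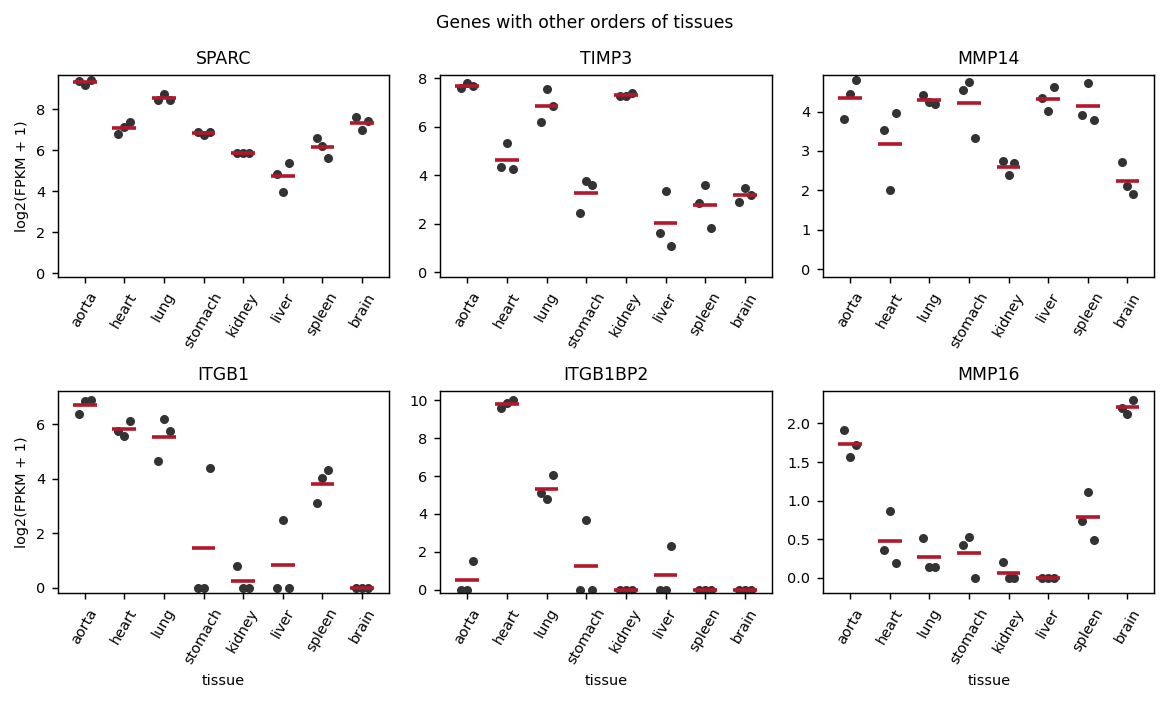
Level, log2(FPKM + 1), of 6 genes with other orders of tissues, 1 panel each, in the 3 libraries of every tissue (points) with the tissue mean (line). SPARC and TIMP3 are highest in aorta with lung or kidney close, MMP14 is lowest in brain and kidney, ITGB1BP2 stands out in heart and MMP16 in brain and aorta.

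ITGB1 was uneven between libraries. It averaged 105 ± 19.5 FPKM in aorta, 55.8 ± 10.97 in heart and 49.7 ± 23.9 in lung (SD, n = 3), and these 3 tissues were not separated from each other in the order of means. Spleen had 7.61, 15.5 and 18.8 FPKM and exceeded stomach by 2.35 (SE 0.84, limma adjusted p = 0.0429). Kidney had 0.750, 0 and 0 FPKM and liver 0, 4.63 and 0. The gene was listed at 0 in 9 of 24 libraries, though beta-1 integrin is made by nearly every nucleated cell, so its zeros here are not read as absence.

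For COL1A1, the tissues ran from aorta through lung, stomach, heart, spleen, kidney and liver to brain. Lung and stomach, spleen and kidney, and liver and brain were neighbours that did not pass the test. For FBLN5, the order was aorta, kidney, lung, heart, spleen, brain, stomach and liver, and heart and spleen, and brain and stomach, were not separated. Stomach and kidney thus changed places between these genes. Over the 8 tissue means, the tested genes most like COL1A1 were FBN1 (Pearson r = 0.942), COL4A5 (0.866), THBS3 (0.819), LOXL1 (0.810) and MFAP4 (0.790). Those most like FBLN5 were TIMP3 (0.939), COL4A5 (0.828), COL1A2 (0.783), ADAMTS6 (0.714) and LOXL1 (0.707). COL1A1 and FBLN5 themselves correlated at 0.670. These are descriptions over 8 points that share their libraries. FBN1, MFAP4 and COL1A2 rested on few reads and did not pass the F test.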

How the data were processed

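RNA was measured in 24 libraries of total RNA, 3 per tissue, grouped by the tissue and number in their titles. Per the submitters' processing notes, fastp, HISAT2, HTSeq and the human build GRCh38.p13 were used. Tool versions, annotation and strand setting are not given in the sources used. The table deposited by the authors holds FPKM of 7493 genes. A mouse gene's FPKM on a human build depends on sequence shared with the human gene, and its denominator is the reads assigned there.

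Reads were recovered from the FPKM steps for 7493 genes (relative tolerance 1e-06) and used for depth and for 1 alternative. Their intervals and floors cover counting error only. Values were analysed as log2(FPKM + 1) for the 4260 genes that reached 1 FPKM in 3 or more libraries. One model of 8 tissue means was fitted in limma 3.58.1 (R 4.3.3; eBayes with trend). Benjamini-Hochberg adjustment ran over all genes of a contrast, and a gene was called with an adjusted p under 0.05 if its difference was 1 or more. Alternatives were other pseudocounts, filters, scalings, variance and call settings, a replicate block, recovered reads, and libraries left out. The fit and the read recovery were tested on simulated data. Python 3.11.15, numpy 2.4.6, pandas 2.3.3 and matplotlib 3.10.9 did the rest.

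Genes named with values were COL1A1, FBLN5, up to 6 called higher and 4 lower per tissue by difference, up to 3 pathway genes per tissue, and the 5 most like each of COL1A1 and FBLN5. Other members and markers were named after their values were seen. Members and lists were chosen with earlier results of these data known. Promoters came from the RefSeq table, which matched 15 of the 24 tested genes. Same-numbered libraries of different tissues deviated together weakly at most, which does not show whether they share an animal.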

Additional observations from a re-analysis of the deposited data

How the results depend on the processing

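No difference reversed. Of 42 named differences, 28 were tested and called in every alternative that applied to them and 12 lost the call somewhere (64 of 1540 recomputed values). MMP24 in brain and ITGBL1 in aorta were called wherever they were tested but missed the filter in some alternatives. The aorta differences of COL1A1, FBLN5, ITGB1, TIMP3 and FN1 never lost it. Counts of called genes were 15 in aorta, 3 in heart, 8 in lung, 5 in stomach, 8 in kidney, 8 in liver, 5 in spleen and 9 in brain. They became 7 in heart, 13 in liver and 10 in spleen with a pseudocount of 0.1, and 5 in lung and 2 in spleen with a pseudocount of 5. The numbers of all genes called moved the same way. In liver 1076 were lower with a pseudocount of 0.1, against 737, and in lung 244 were higher with 5, against 508. Smaller relative changes in the counts of the 24 genes are not all listed, such as rises in lung, kidney and stomach with a pseudocount of 0.1. With no minimum difference the counts were 8 in heart, 13 in lung, 10 in stomach, 13 in kidney, 14 in liver and 10 in spleen, by construction. On recovered reads with limma voom they were 13 in lung, 14 in spleen and 16 in brain. Stomach had 3 with no filter and 3 without aorta replicates 1 and 3, where 4 genes, not 8, were elevated. That fit has 1 aorta library, assumed to vary like those of the other tissues. The F test gave 12, not 20, with a filter at 5 FPKM, which tested fewer genes. Except where the construction is named, the cause was not tested. A pseudocount of 5 ended the aorta calls of ADAMTS6, ITGA5, MMP16 and TNC.

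Leaving out each library gave 12 to 15 called genes in aorta, 2 to 3 in heart, 8 to 11 in lung, 3 to 6 in stomach, 7 to 9 in kidney, 7 to 8 in liver, 4 to 8 in spleen and 8 to 9 in brain, with 6 to 9 elevated and 17 to 21 passing the F test. Stomach fell to 3 without heart replicate 3 or stomach replicate 1, and spleen had 8 without liver replicate 2. MMP24 no longer passed the filter when any brain library was left out. With aorta left out of the comparison mean, an alternative chosen after seeing the data, heart had 2, lung 11, stomach 4, kidney 7, liver 7, spleen 4 and brain 9.

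Whether same-numbered libraries share an animal was not settled, since counting noise can hide shared deviations and differently numbered pairs were not compared. The deviations of 84 same-numbered pairs correlated at -0.059 to 0.128 (median 0.024), and with a replicate block every tissue kept its count, 15 in aorta and 9 in brain among them. The median of all genes in brain was -0.02 as deposited, 0.18 with TPM and -0.35 after quantile normalization, where 791 genes were higher and 851 lower against 1019 and 449 as deposited, and 1 and 7 of the 24 genes against 2 and 7. Under TPM, median-ratio and quantile scaling stomach had 1 gene higher and 3 lower. Depth limits the 48 genes that missed the filter. Tested with no filter, ITGA7 in heart was the one of them called in any tissue.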
